A study of Mus musculus with 6 samples.

Results

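Retinoid receptors and retinoid-handling genes are 9 of the 51912 rows of a gene count table from R1 mouse embryonic stem cells, an established pluripotent line. The 9 were chosen by symbol: the retinoic acid receptor genes Rara, Rarb and Rarg, the retinoid X receptor genes Rxra, Rxrb and Rxrg, the binding protein genes Crabp1 and Crabp2, and Cyp26a1, which encodes an enzyme that breaks retinoic acid down. Cells were kept in 2iLIF, a medium that holds the naive state with inhibitors of MEK and GSK3 and the cytokine LIF. They were then moved to the serum-free medium N2B27 and given FGF2 (100 ng/ml) for 24 h or for 48 h, and 3 libraries were made at each time. Both groups come from 1 cell line and received FGF2, and the labels name no genetic change and no added retinoid. Libraries from the starting medium or from N2B27 without FGF2 were not analysed here, so FGF2, the change of medium and time in culture cannot be told apart. Separate cultures are not named for the replicates in the labels, so p-values measure the spread between these libraries, which may be technical.

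Retinoic acid is made inside cells from vitamin A: retinol is oxidised to retinal, and retinal to the acid. The acid enters the nucleus and binds a RAR protein that sits on DNA together with a RXR protein, often at a direct repeat of a short half-site. Without ligand the pair holds corepressors, and with ligand it exchanges them for coactivators. In embryonic stem cells retinoic acid is known as a strong inducer of differentiation, and Rarb and Cyp26a1 are among its best known direct targets.

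The libraries held between 19574969 and 23133148 estimated counts. All 8 naive pluripotency markers fell and all 7 formative and primed markers rose, and the formative and primed markers summed to between 480.9 and 540.5 CPM (counts scaled to the library total, with TMM factors) at 24 h and between 2853 and 2925 CPM at 48 h. Of the 8 neural markers, 6 were tested, 4 rose and 2 fell, and their summed level went from between 148.2 and 157.8 CPM to between 214.6 and 220.6 CPM. Of the 9 primitive endoderm markers, 5 were tested and 3 fell, with sums from between 167.8 and 179.4 CPM to between 115.7 and 121.3 CPM. Most of this sum was Col4a1 (121.1 to 102.4 CPM) and Lama1 (43.1 to 10.8 CPM). Gata6, Sox17, Foxa2, Sox7 and Pdgfra averaged at most 0.75 CPM at either time, so the sum does not measure a primitive endoderm fraction. Trophoblast (3 of 4 tested fell), mesoderm (1 tested, which fell) and fibroblast markers (3 tested, 1 rose and 1 fell) completed the check, and the fibroblast markers summed to at most 3.83 CPM in any library. Single markers of a list differed widely in level. Postn was at 0 counts in every library, and Cdx2, Mesp1, Hes5 and T had between 0 and 2 counts. Some other markers of the neural and trophoblast lists were clearly present. In the mesoderm list this held for Eomes only, and the rest had at most 11 counts in any library. The neural markers Sox1 and Pax6 rose from 14.7 to 36.6 and from 11.6 to 33.9 CPM, and Sox11 and Zic1 also rose. The neural markers Tubb3 and Nes fell, from 78.2 to 54.3 and from 26.9 to 23.5 CPM. Eomes, in the mesoderm and trophoblast lists, fell from 16.1 to 13.2 CPM, and the trophoblast marker Krt8 from 20.6 to 5.26 CPM. The part of the shifts in neural and primitive endoderm markers in the results below was not tested. In these bulk samples, fewer cells of a type and less RNA per cell cannot be told apart.

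Of the 14889 genes tested with edgeR's quasi-likelihood test, 62.8% changed between 24 h and 48 h (adjusted p below 0.05), 30.9% upwards and 31.9% downwards. Of the 9 retinoid genes, 7 had enough counts to be tested, and 6 of these changed: Crabp2, Rxrg and Rarg rose, and Crabp1, Rxra and Rara fell. For 5 of these 7 every library of one time lay beyond every library of the other, which held for 66.9% of all genes tested. The median log2 fold change of 48 h over 24 h (log2FC) was 0.08 for the 7 and -0.01 for all tested genes. Sizes differed far more than this count shows, from a 6.93-fold rise of Crabp2 to a shift of Rara close to the spread between libraries. The estimated counts of all 9 were whole numbers in each library and show no sign of reads divided between similar genes.

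**Figure D1:**
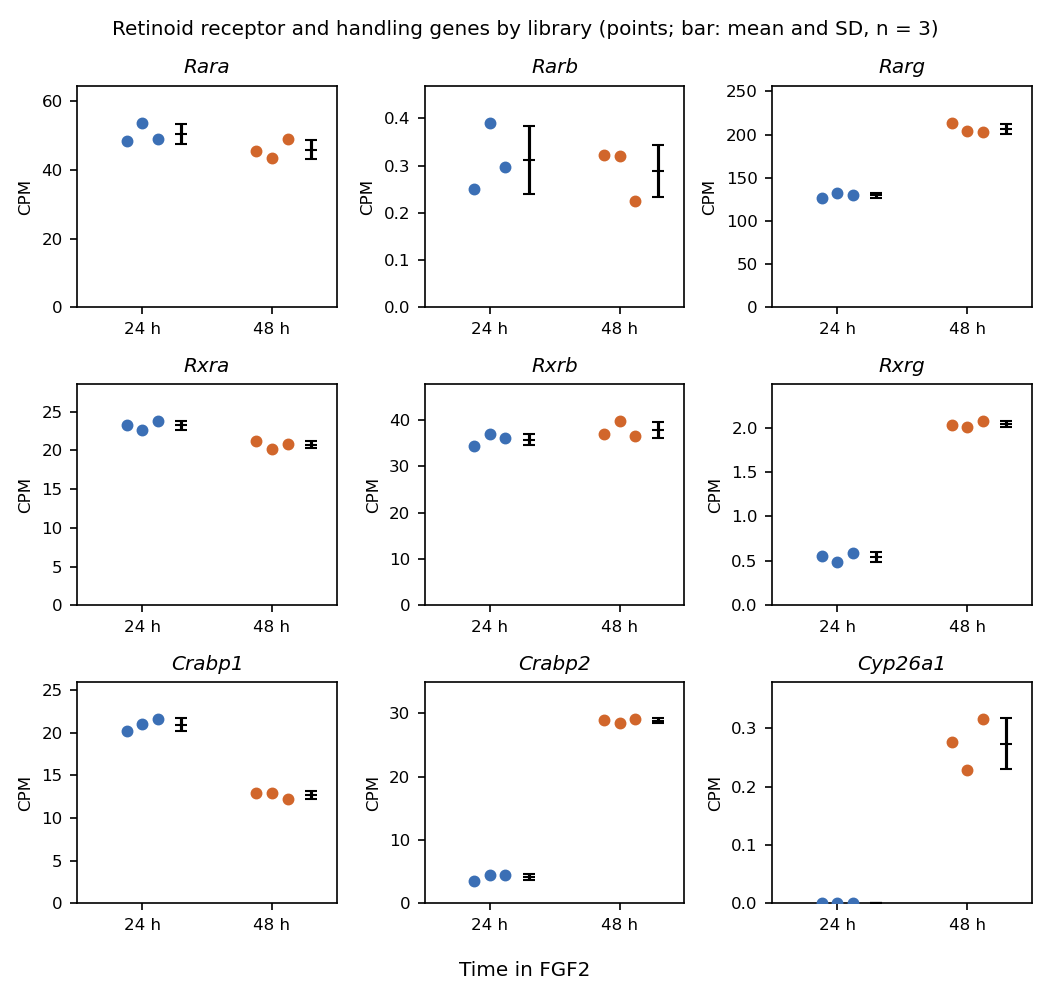
Level of each retinoid gene in CPM (vertical axis, linear, from 0, with a scale of its own for each gene) at 24 h and 48 h of FGF2. Each point is 1 library, and the bar beside the points is the mean and SD of 3. Rarg, Rxrg, Crabp2 and Cyp26a1 are higher and Crabp1 and Rxra lower in every 48 h library, while the points of Rara, Rarb and Rxrb overlap between the times.

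Rarg, the receptor gene with the highest level per length, rose. Its level was 126.6, 131.98 and 130.3 CPM in the 24 h libraries and 213.6, 203.9 and 202.9 CPM in the 48 h libraries. Every 48 h library lay above every 24 h library. The log2FC was 0.67 (SE 0.03, 95% interval 0.62 to 0.73, adjusted p = 1.46e-12), and 8.11% of the tested genes had a larger increase. Rarg lies at chr15:102234938-102257517 on the minus strand (GRCm38) and encodes the retinoic acid receptor that is widely used in early embryonic cells. Gene-level counts do not separate its isoforms.

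Rara, which encodes the broadly expressed alpha receptor (chr11:98927818-98974942, plus strand), moved little. It stood at 48.3, 53.6 and 48.9 CPM at 24 h and at 45.3, 43.4 and 48.8 CPM at 48 h. The highest 48 h library reached into the range of the 24 h libraries. The fitted log2FC was -0.13 (SE 0.05, adjusted p = 0.0299). The call was lost in DESeq2 (log2FC -0.12, adjusted p = 0.0907). It was also lost on leaving out replicate 2 of 24 h (log2FC -0.09, adjusted p = 0.158), replicate 1 of 48 h (log2FC -0.12, adjusted p = 0.0792) or replicate 2 of 48 h (log2FC -0.09, adjusted p = 0.161).

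Rarb, the receptor gene that retinoic acid itself induces, was close to undetected at both times. Its estimated counts were 5, 8 and 7 at 24 h and 7, 7 and 5 at 48 h, which is 0.313 ± 0.071 and 0.289 ± 0.055 CPM (SD, n = 3). It was too low for the filter on low counts. In the edgeR fit of every gene with at least 1 count, 37.4% of 26148 genes were called. There the log2FC of Rarb was -0.11 (95% interval -1.24 to 1.01, adjusted p = 0.908). That interval holds both falls and rises, so these few counts show neither a direction nor the absence of a change. Rarb (chr14:16430839-16819156, minus strand) shares 1793 bases of exon sequence with Top2b, a topoisomerase gene on the opposite strand that stood at 160.6 ± 4.04 CPM at 24 h and 216.9 ± 4.80 CPM at 48 h. Whether strand was used in the counting is not given in the sources used here, and the few Rarb counts can include Top2b reads. This was not tested, and the estimated counts of both genes were whole numbers in every library.

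The RXR genes, whose proteins pair with RAR and with many other nuclear receptors, showed 1 fall, 1 rise and 1 gene without a detected change. Rxrb (chr17:34031812-34038399, plus strand) was the most abundant of the 3 per length, at 34.4, 36.9 and 36.0 CPM at 24 h and 36.9, 39.8 and 36.6 CPM at 48 h. The groups overlapped, and the log2FC was 0.08 (95% interval -0.02 to 0.18, adjusted p = 0.156). That interval corresponds to a ratio between 0.986 and 1.13. Rxra (chr2:27676440-27762957, plus strand) was at 23.3, 22.6 and 23.8 CPM and then at 21.2, 20.2 and 20.8 CPM. All 3 of its 48 h libraries were lower, with a log2FC of -0.16 (SE 0.06, adjusted p = 0.017). The Rxra call was lost in DESeq2 (log2FC -0.16, adjusted p = 0.109) and on leaving out replicate 3 of 24 h (log2FC -0.15, adjusted p = 0.0629) or replicate 2 of 48 h (log2FC -0.15, adjusted p = 0.0604).

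Rxrg, the RXR gene best known from muscle and nervous tissue, rose from a very low level. It had 11, 10 and 14 counts at 24 h and 44, 44 and 46 counts at 48 h, or 0.544 ± 0.053 and 2.04 ± 0.033 CPM (SD, n = 3). The groups were well apart, and the log2FC was 1.89 (SE 0.25, 95% interval 1.36 to 2.42, adjusted p = 5.64e-06). At 48 h it still made up only 4.76% ± 0.18 (SD, n = 3) of the RXR level per length. Rxrg lies at chr1:167598384-167639623 on the plus strand.

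Crabp2 showed the largest change of the set. It encodes the binding protein known to hand retinoic acid to RAR in the nucleus. Its level was 3.55, 4.44 and 4.45 CPM at 24 h and 29.0, 28.5 and 29.1 CPM at 48 h. The fitted ratio was 6.93 (95% interval 6.12 to 7.84), or a log2FC of 2.79 (SE 0.08, adjusted p = 4.09e-14). Only 81 of the 14889 tested genes had a larger increase. Crabp2 lies at chr3:87948666-87953376 on the plus strand.

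Crabp1, whose protein binds retinoic acid in the cytoplasm and is linked to its breakdown, moved the opposite way. It was at 20.2, 21.0 and 21.6 CPM at 24 h and at 12.9, 13.0 and 12.2 CPM at 48 h. Every 48 h library was below every 24 h library. The log2FC was -0.72 (SE 0.07, 95% interval -0.86 to -0.58, adjusted p = 8.84e-08), and 10.9% of tested genes had a larger decrease. Tested against a change of at least 1.5-fold with glmTreat, the Crabp1 call was lost (adjusted p = 0.0606), while those of Crabp2, Rxrg and Rarg were kept. Crabp1 lies at chr9:54764748-54773110 on the plus strand.

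**Figure D2:**
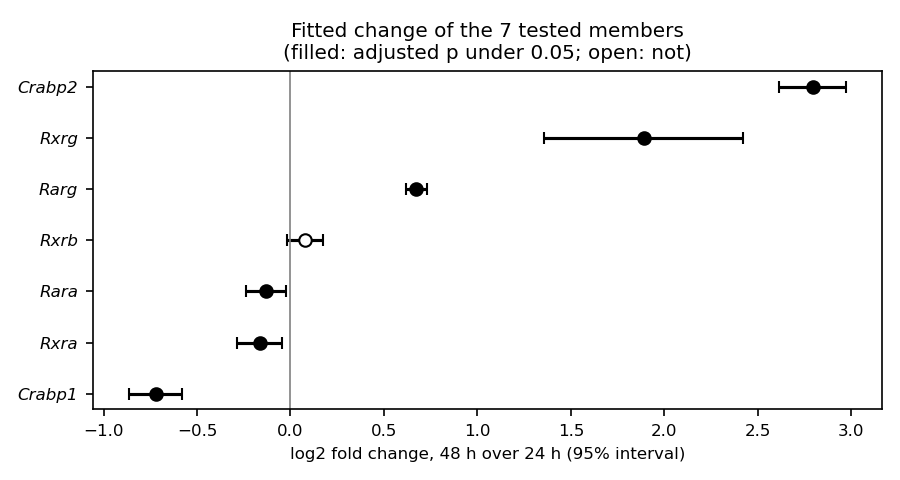
Fitted log2FC, 48 h over 24 h (horizontal axis), of the 7 tested retinoid genes with its 95% interval. Filled points passed an adjusted p of 0.05 and the open point, Rxrb at 0.08, did not. Crabp2 stands at 2.79 and Crabp1 at -0.72, on opposite sides of 0.

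Levels can be compared between genes only per length, so CPM were divided by the mean length of each gene's coding transcripts in GENCODE M21. On this scale Crabp1 exceeded Crabp2 by 5.91 ± 0.59 times (SD, n = 3) at 24 h, and at 48 h Crabp2 exceeded Crabp1 by 1.96 ± 0.084 times. The order of the pair was the same in all libraries of a time. Crabp2 went from 14.5% ± 1.19 to 66.2% ± 0.95 of the summed CRABP level (10.7% and 58.0% with the length of all merged exons), and the sum itself went from 30.6 ± 1.43 to 46.9 ± 0.37 CPM per kilobase. Within the RAR genes, Rarg went from 72.5% ± 0.84 to 82.2% ± 1.04 of the family level, and the Rarg to Rara ratio from 2.66 ± 0.11 to 4.66 ± 0.33. The RAR sum lay between 61.2 and 65.02 CPM per kilobase in the 24 h libraries and between 86.9 and 90.97 in the 48 h libraries. The RXR sum was 22.3 ± 0.45 and 23.1 ± 0.56 CPM per kilobase, with the highest 24 h library (22.63) just below the lowest 48 h library (22.66). Rxrb made up 64.1% ± 1.25 and 65.4% ± 1.48 of it. These shares are descriptions and were not tested.

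**Figure D3:**
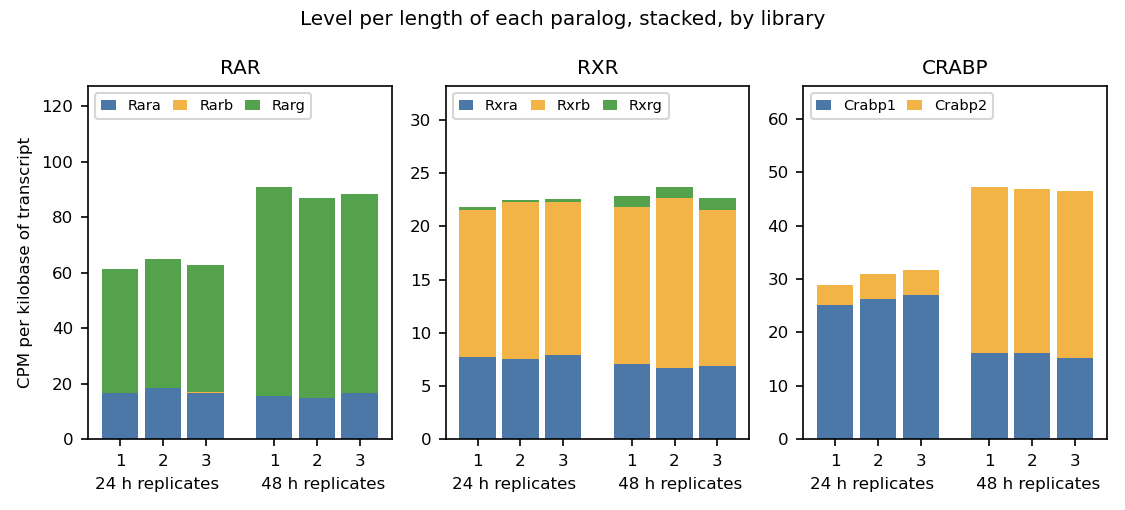
Level per length (CPM per kilobase of transcript, vertical axis from 0) of the RAR, RXR and CRABP genes, stacked in 1 bar per library, with replicates 1 to 3 of 24 h on the left and of 48 h on the right of each panel. Rarg fills most of every RAR bar, the RXR bars keep about the same height, and the CRABP bars change from mostly Crabp1 to mostly Crabp2. Rarb, at up to 0.205% of the RAR level, is at most a hairline.

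At 24 h the order of levels per length was Rarg (45.7 CPM per kilobase), Crabp1 (26.1), Rara (17.2), Rxrb (14.3), Rxra (7.71), Crabp2 (4.46), Rxrg (0.294) and Rarb (0.107), with Cyp26a1 at 0. Libraries of neighbours in this 24 h order did not overlap. At 48 h it was Rarg (72.9), Crabp2 (31.0), Crabp1 (15.9), Rara (15.7), Rxrb (15.1), Rxra (6.88), Rxrg (1.10), Cyp26a1 (0.153) and Rarb (0.0988). The levels of Crabp1, Rara and Rxrb at 48 h overlapped between libraries and were not separated. With the merged exon length, Crabp1 (15.9 CPM per kilobase) stood above Rara (10.5) and Rxrb (9.50) at 48 h, so the place of Crabp1 in this order rests on the transcript length used.

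Cyp26a1, the enzyme gene that retinoic acid switches on to limit its own level, had counts in the 48 h libraries only, and few. It had 0 counts in each of the 3 libraries at 24 h, and 6, 5 and 7 counts at 48 h. The 18 counts of the 48 h group (95% exact Poisson interval 10.7 to 28.4) correspond to 0.274 CPM. For the 24 h group of 0 counts a floor of 3 counts, or 0.0468 CPM, was set. With the 18 counts taken as they stand, Cyp26a1 at 48 h was 5.84-fold above that floor. The 95% exact Poisson interval of the 0 counts reaches 3.69 counts, beyond the floor, so 5.84-fold is not a lower bound under that interval. The fold also leaves out the counting error of the 18 counts, and intervals and floor cover counting error only. A two-sided exact permutation test of the 6 CPM values gave p = 0.1, the smallest that 3 against 3 libraries can give. In the edgeR fit of every gene with at least 1 count Cyp26a1 was called (adjusted p = 0.000271, where 37.4% of genes were called). It entered that fit through its 48 h counts alone, so the call adds no separate support. Adjusted p-values of that fit are not on the scale of the main edgeR fit. For Rarg they were 2.03e-138 and 1.46e-12, and for Rxra 0.0289 and 0.017. Per length, its mean at 48 h was 0.153 CPM per kilobase beside 15.7 for Rara and 72.9 for Rarg. The other CYP26 genes also had few counts: Cyp26b1 had between 3 and 10 counts and Cyp26c1 0 or 1 in every library, and neither was tested.

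Promoter windows were taken from RefSeq (GRCm38.p6), from 250 bases before to 50 bases after each annotated start, and 8 of the 9 genes matched, with 15 windows. The consensus half-site AGGTCA and its variants, spelled GGGTCA or AGTTCA or else GGTTCA, were searched on both strands, alone and as direct repeats spaced by 1, 2 or 5 bases, so that a repeat also counts as half-sites. At least 1 half-site was found in 8 of the 15 windows, and in 43.7% of all 32851 windows. By gene, 6 of the 8 had one, as did 46.9% of all 27025 genes. A direct repeat spaced by 5 was found in the windows of Rarb and Cyp26a1, and in 0.0974% of all windows. No repeat spaced by 1 or 2 was found in the members' windows, against 0.222% and 0.268% of all windows. The Rarb repeat lies between 53 and 37 bases before the annotated start, in the direction of transcription, and the Cyp26a1 repeat between 32 and 16 bases before it, on the opposite strand. The 2 repeats are shown because both genes were near or at 0 counts in these cells, with the half-sites in capitals, each read along its own strand.
Rarb repeat: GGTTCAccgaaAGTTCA
Cyp26a1 repeat: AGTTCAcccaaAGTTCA

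The windows that hold them are given 5′ to 3′ in the direction of transcription, again with the half-sites of the repeat in capitals (for Cyp26a1 these appear as the reverse complement). The Rarb window is chr14:16575427-16575726 on the minus strand and the Cyp26a1 window is chr19:37697558-37697857 on the plus strand, where the gene itself spans chr19:37697798-37701536. A match describes letters in these windows and is not evidence that a receptor was bound there in these cells.
Rarb window: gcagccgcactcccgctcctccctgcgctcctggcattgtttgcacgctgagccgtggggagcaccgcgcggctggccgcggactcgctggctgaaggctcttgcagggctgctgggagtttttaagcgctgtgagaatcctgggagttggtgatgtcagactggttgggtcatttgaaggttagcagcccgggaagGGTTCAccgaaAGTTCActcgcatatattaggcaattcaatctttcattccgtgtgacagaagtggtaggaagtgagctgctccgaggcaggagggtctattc
Cyp26a1 window: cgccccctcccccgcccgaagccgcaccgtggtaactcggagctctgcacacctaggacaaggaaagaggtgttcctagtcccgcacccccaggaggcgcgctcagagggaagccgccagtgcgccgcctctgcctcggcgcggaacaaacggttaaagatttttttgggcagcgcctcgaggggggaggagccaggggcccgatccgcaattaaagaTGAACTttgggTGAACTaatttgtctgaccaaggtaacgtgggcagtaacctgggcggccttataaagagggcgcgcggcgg

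The supply side of the pathway was described with lists of 11 genes for retinoid entry and storage and 21 for the oxidation and reduction of retinol and retinal. In the first list 7 genes were tested, 2 rose, 2 fell and 3 did not pass, with a median log2FC of 0.11. Over all tested genes 30.9% rose and 31.9% fell. Fabp5, a fatty acid binding protein that can also carry retinoic acid, rose from 10.4 ± 0.52 to 22.2 ± 1.60 CPM (SD, n = 3), with a log2FC of 1.10 (adjusted p = 2.29e-09). The estimated counts of Fabp5 were not all whole numbers, so some reads may have been divided with similar genes. Stra6, which encodes the cell surface receptor for retinol-binding protein, rose with a log2FC of 1.37 (adjusted p = 0.00773) on 6 to 7 counts per library at 24 h and 11 to 23 at 48 h, and was no longer called on leaving out replicate 1 of 48 h (adjusted p = 0.0555). Rlbp1 and Dgat1 fell, with log2FC of -0.66 and -0.28. The Dgat1 call was lost in DESeq2 and without replicate 3 of 24 h, replicate 1 of 48 h or replicate 3 of 48 h. Rbp2 and Ttr had no count in any library.

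In the second list 12 genes were tested, 3 rose, 4 fell and 5 did not pass, with a median of -0.13. The shares over all tested genes were 30.9% and 31.9%. Aldh1a2, the enzyme that makes retinoic acid from retinal in the early embryo, was at 1.35, 1.32 and 1.44 CPM at 24 h and at 3.59, 3.25 and 3.38 CPM at 48 h. Its groups were well apart (log2FC 1.31, SE 0.17, adjusted p = 4.39e-06). The related Aldh1a3 was at 0.568 ± 0.172 and 0.487 ± 0.118 CPM (adjusted p = 0.608), and Aldh1a1 had at most 2 counts in a library. Rdh10, which oxidises retinol to retinal in the embryo, rose with a log2FC of 0.56 (adjusted p = 0.0042), and Rdh11 with one of 0.31. Dhrs3, which turns retinal back into retinol, was at 3.50, 4.35 and 3.69 CPM and then at 0.644, 1.05 and 1.17 CPM. Every 48 h library was lower (adjusted p = 3.65e-07), and the mean went from 3.85 to 0.956 CPM. Rdh5, Rdh13 and Adh5 fell with log2FC of -1.12, -0.23 and -0.11, and the call of Rdh5 was lost in DESeq2 and in 3 of the 6 fits without 1 library (replicate 3 of 24 h, replicate 1 or 3 of 48 h). Rdh5 had 16 to 25 counts per library at 24 h and 6 to 16 at 48 h, and passed the filter on low counts through the 24 h libraries. Exons of Rdh5 also overlap those of Bloc1s1 on the same strand, and its estimated counts were not all whole numbers.

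**Figure D4:**
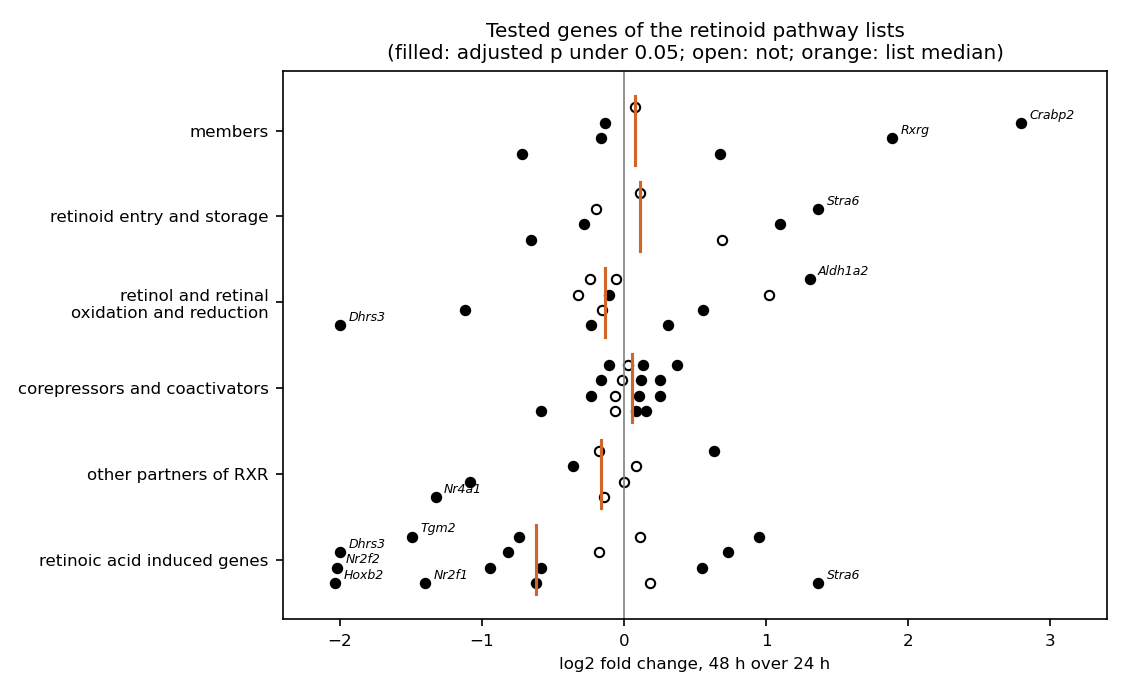
The log2FC, 48 h over 24 h (horizontal axis), of each tested gene of the retinoid genes (the row named members) and of 5 related lists. Gene names mark changes of at least 1.2. Filled points passed an adjusted p of 0.05, open points did not, the orange bar is the list's median, and points are spread vertically only to be visible. Cofactor genes lie within 0.6 of 0, and most tested genes of the retinoic acid induced list lie to the left of 0, with a median of -0.62.

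The cofactors that the receptors recruit were all abundant enough to test. Of 16 corepressor and coactivator genes 8 rose, 4 fell and 4 did not pass, with a median of 0.06. Among all tested genes 30.9% rose and 31.9% fell. Ncor1, a corepressor that binds RAR without ligand, rose from 540.4 ± 5.83 to 600.4 ± 0.44 CPM (log2FC 0.15, adjusted p = 4.56e-07). Carm1, a coactivator methyltransferase, rose (log2FC 0.37), and the coactivator gene Ncoa3 fell (log2FC -0.16). Nrip1, a corepressor of ligand-bound receptors that retinoic acid induces, fell from 29.5 ± 0.50 to 19.7 ± 0.37 CPM (log2FC -0.58, adjusted p = 4.59e-08). Scaling by library totals alone, which shifted the median of all tested genes from -0.01 to -0.07, left 5 in place of 8 cofactor genes called higher. Of 13 other nuclear receptors that pair with RXR, 8 were tested, 1 rose and 3 fell (30.9% and 31.9% of all tested genes did). The fall was largest for Nr4a1, from 21.1 ± 0.64 to 8.41 ± 0.70 CPM (log2FC -1.33, adjusted p = 2.65e-10). The thyroid hormone receptor genes Thrb and Thra fell (log2FC -1.08 and -0.36), and Nr4a2 rose (log2FC 0.63). The call of Nr4a2 was lost without replicate 3 of 48 h. Nr1h2, which encodes a liver X receptor, was at 48.99 ± 1.37 and 51.9 ± 1.46 CPM (adjusted p = 0.079).

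A list of 23 genes that retinoic acid is known to induce in embryonic cells was read beside Rarb and Cyp26a1. In it 17 genes were tested, 10 fell, 4 rose and 3 did not pass, where 31.9% of all tested genes fell and 30.9% rose. The median log2FC was -0.62 against -0.01 for all tested genes. The summed level of the list went the other way, from between 188.5 and 201.05 CPM at 24 h to between 239.9 and 246.8 CPM at 48 h. Nr2f2, an orphan nuclear receptor gene, was at 1.55, 1.61 and 1.70 CPM at 24 h and at 0.368, 0.320 and 0.496 CPM at 48 h (log2FC -2.02, SE 0.29, adjusted p = 1.37e-05). Its relative Nr2f1 also fell (log2FC -1.40). Hoxb2 fell on 2 to 12 counts per library (log2FC -2.03). Meis1 and Meis2, cofactors of Hox proteins, fell (log2FC -0.74 and -0.62), as did Stra8 and Tgm2 (log2FC -0.94 and -1.49). Dhrs3 and Nrip1, given above, are also in this list. Gbx2, a homeobox gene, rose from 12.1 ± 0.57 to 20.1 ± 0.76 CPM (log2FC 0.74, adjusted p = 1.22e-07). Stra6 rose as given above, and Hoxa5 rose (log2FC 0.55, adjusted p = 0.0499), a call lost in DESeq2, in limma voom, with library size alone and in 4 of the 6 fits without 1 library (replicates 2 and 3 of 24 h, 1 and 2 of 48 h). Without replicate 1 of 48 h, 2 in place of 4 genes of the list were called higher. Hoxb2, Tgm2 and Nr2f2 had fewer than 10 counts in 48 h libraries, and Stra6 in 24 h libraries. They passed the filter on low counts through the time at which they were higher. With at least 10 counts asked of every library, 7 genes of the list were called lower and 3 higher. With glmTreat against 1.5-fold 7 were called lower and 1 higher. Hoxb1, a textbook target, had 0 or 1 count in a library and was not tested. These genes respond to other signals too. Exons of Hoxb2, Meis1, Nr2f1, Nr2f2, Tgm2 and Gbx2, and among the genes above those of Thra, Carm1, Ncor1 and Ncoa3, overlap exons annotated on the other strand in GENCODE M21. Those counts could hold reads of the partner gene had strand been ignored, which was not tested. Apart from Meis1 and Ncor1, the estimated counts of these genes were whole numbers in every library. Meis1 also shares 1029 bases of exon sequence with Gm37818 on its own strand, where strand would not separate the reads. The estimated counts of Meis1, like those of Ncor1, were not all whole numbers.

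The genes with the profile closest to that of Crabp2 over the 6 libraries, by the distance between centred log2 CPM, were Arl4c, Mmp25 and Slc35d3, at distances of 0.19, 0.27 and 0.32. Their log2FC were 2.72, 2.81 and 2.55. Arl4c went from 5.27 ± 0.44 to 34.8 ± 1.54 CPM (SD, n = 3). Those closest to Crabp1 were Ostf1, Amt and Ticrr, at distances of 0.045, 0.065 and 0.071, with log2FC of -0.73, -0.69 and -0.71. With 2 groups this measure mostly reads the size of the change between the times.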

How the data were processed

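Messenger RNA libraries of 6 samples (KAPA mRNA HyperPrep, per the labels' protocols) were compared as 24 h against 48 h of FGF2. The authors' deposited table holds RSEM estimated counts (expected counts) per Ensembl gene, not scaled for depth or length. Cutadapt 1.9.1, STAR 2.5.2, RSEM 1.3.0 and build GRCm38 are named in the submitters' processing notes. The annotation release, the use of strand and filters are not given in the sources used here. Symbols came from a table of Ensembl identifiers and gene names, which matched 51633 of 51912 identifiers. Identifiers without a symbol took no more than 0.05% of any library.

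Counts were rounded, filtered with filterByExpr (minimum count 10), scaled by TMM and tested with edgeR 4.0.16 (glmQLFit and glmQLFTest, R 4.3.3), group as the only term, with Benjamini-Hochberg adjustment over 14889 genes and a threshold of 0.05. The standard error (SE) is the log2 fold change over the square root of F, and 95% intervals use the fit's degrees of freedom. Scripts were tested on simulated data. Alternatives were RLE or library size scaling, 2 filters, DESeq2 1.42.0, limma voom (limma 3.58.1), unrounded counts, the replicate block, a threshold of 0.01, glmTreat and leaving out each library. Levels per length used GENCODE M21 coding transcripts, with merged exon lengths as an alternative added after seeing the data. The 9 genes and all lists were chosen with earlier results of these data known. Named genes are the 9, genes of the lists, and, for the called member with the largest change in each direction, the 3 nearest genes by profile among those averaging 5 CPM or more. Some genes of the lists are counted but not reported singly here. Replicate pairs differed by 1.80 to 2.25 chi-square per degree of freedom, above counting noise, and were counted separately.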

Additional observations from a re-analysis of the deposited data

How the results depend on the processing

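Crabp2, Rxrg and Rarg kept their direction and call in all 16 alternatives, with log2 fold changes from 2.70 to 2.85, from 1.82 to 1.96 and from 0.61 to 0.69. Rxrb was called in none (0.02 to 0.10). Crabp1 lost its call only with glmTreat against 1.5-fold (-0.72, adjusted p = 0.0606). Rara and Rxra kept their direction and lost the call in DESeq2 (-0.12 and -0.16), at a threshold of 0.01 (-0.13 and -0.16) and with glmTreat (-0.13 and -0.16). Leaving out 1 library gave log2 fold changes from -0.18 to -0.086 for Rara and from -0.19 to -0.15 for Rxra. The count of retinoid genes called lower, 3, became 1 in DESeq2, 1 at the threshold of 0.01 and 0 with glmTreat, and ranged from 1 to 3 without 1 library (1 without replicate 2 of 48 h). The count called higher was 3, or 4 with every gene tested, where Cyp26a1 is added through its 48 h counts alone. The count of all changed genes was 1894 with glmTreat, which asks for more than a 1.5-fold change, and between 7810 and 9792 otherwise.

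Counts of the pathway lists moved as follows. With glmTreat the counts called higher and lower were 1 and 0 for entry and storage (from 2 and 2), 1 and 1 for oxidation and reduction (from 3 and 4), 0 and 0 for cofactors (from 8 and 4) and 0 and 1 for RXR partners (from 1 and 3), and 1 retinoic acid induced gene was called higher (from 4). With library size alone 5 cofactors were called higher, and in DESeq2 2 cofactors and 1 entry gene were called lower. At a threshold of 0.01, 1 entry gene was called lower and 0 RXR partners higher, and with at least 10 counts in every library 1 entry gene was called higher. Without 1 library the counts ranged from 1 to 2 for entry genes in each direction, from 0 to 1 for RXR partners called higher and from 2 to 4 for retinoic acid induced genes called higher.

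With merged exon lengths, a choice added after seeing the data, the shares at 24 h and 48 h were 89.3% and 42.04% for Crabp1, 10.7% and 58.0% for Crabp2, 31.6% and 26.8% for Rxra, 66.7% and 66.9% for Rxrb and 1.76% and 6.26% for Rxrg. Shares within the RAR genes moved by less than the SD between libraries.

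With the replicate block 9235 genes changed, and 3 retinoid genes rose and 3 fell. Deviations of same-numbered libraries correlated at -0.05, -0.04 and -0.01, so the numbers are not taken as pairs. Of the 46 other genes followed (those called in the pathway lists, those named without a call and the closest profiles), 667 values kept direction and call, 62 lost the call and 1 reversed, of a gene that was not called. Without 1 library Aldh1a3 ranged from -0.40 to 0.049, above 0 without replicate 3 of 24 h (0.049). Which single genes were followed was settled after their values were seen. For all of these, the cause was not tested. Depth limits Rarb and Cyp26a1, at most 8 counts in a library.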

Other observations

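The fibroblast marker Dcn is singled out after its values were seen. Dcn, which encodes the matrix proteoglycan decorin, had 0 counts in the 3 libraries at 24 h and stood at 1.06, 1.14 and 1.44 CPM at 48 h. Col1a1 fell (log2 fold change -1.76) on 16 to 30 counts per library at 24 h and 4 to 9 at 48 h. Dcn and Col1a1 each passed the filter on low counts through the time at which they were higher. Col3a1 had at most 2 counts in a library and Postn had none. A direct repeat spaced by 5, as in Rarb and Cyp26a1, was found in windows of 31 genes, of which 17 matched the count table by symbol and 5 were tested. Of the 5, 4 were called (62.8% of all tested genes were). Gm14133 rose from 1.03 to 2.51 CPM (edgeR adjusted p = 8.19e-05). Gm4631 fell from 180.3 to 149.7 CPM (edgeR adjusted p = 5.5e-08), Cfap45 from 1.06 to 0.608 CPM (edgeR adjusted p = 0.0293) and Syndig1 from 16.1 to 13.5 CPM with overlapping groups (edgeR adjusted p = 0.0376). These genes were looked up after the values were seen.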
